A study of Mus musculus with 35 samples.

Results

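The 47 genes described here encode proteins that build ribosomes in the nucleolus of the mouse cell, and they were taken by name from the 49671 genes of the count table. All 47 were found, 46 by symbol and *Utp4* by its identifier under the older symbol *Cirh1a*, and all 47 passed the filter on low counts that kept 17166 genes for testing. They fall into 9 roles: 4 proteins of box C/D small nucleolar ribonucleoproteins (snoRNPs), 4 of box H/ACA snoRNPs, 6 nucleolar phosphoproteins and helicases, 3 subunits of RNA polymerase I, 5 proteins of the UTP-A subcomplex, 10 other proteins of the small subunit processome, 4 factors of late small subunit assembly, 10 factors of large subunit assembly, and the stand-alone pseudouridine synthase *Pus7*.

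The study asked how parts of the leukemia fusion protein NUP98-HOXA9 contribute to its effect on blood progenitors. Lineage-negative hematopoietic stem and progenitor cells from the bone marrow of C57Bl/6 mice were transduced with a lentivirus that also carried mCherry and sorted by fluorescence. They were then grown for 1 week in methylcellulose with GM-CSF, at 10 ng/mL per the labels in every group, before total RNA was sequenced. The 7 groups of 5 libraries were Empty (the vector alone), G-NHX9 (the mEGFP-tagged fusion), G-NHX9-8FA (8 phenylalanines changed to alanine in the NUP98 part), G-NHX9-21FGAA (21 phenylalanine-glycine pairs changed to alanines in the NUP98 part), G-NHX9-midi (a shortened NUP98 part), G-NHX9-midi-21FGAA (the shortened part with the 21 pairs changed) and G-NHX9-DDNA (the full NUP98 part with a homeodomain mutated to weaken DNA binding). Empty cells were sorted for mCherry and all other groups for mCherry and mEGFP, so the gate differed between Empty and every construct. The promoter that drives the constructs, and the number of mice behind a library, are not given in the sources used here. The labels give an age of 8 weeks for the mice of 32 libraries, 9 and 10 weeks for Empty replicates 4 and 5, and 11 weeks for G-NHX9 replicate 1.

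Ribosome production starts in the nucleolus, where RNA polymerase I transcribes the precursor of the ribosomal RNAs. The precursor is folded, chemically modified and cut while early assembly factors load onto it: box C/D snoRNPs guide methylation of the ribose and box H/ACA snoRNPs guide the conversion of uridine to pseudouridine, the small subunit processome forms on the 5′ part of the transcript, and a separate set of factors builds the large subunit. Growing and dividing cells make many ribosomes, several of these genes are textbook targets of the transcription factor MYC, and nucleophosmin, encoded by *Npm1*, is among the genes most often mutated in acute myeloid leukemia.

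Libraries held between 31559914 and 75810659 counted reads, and levels below are given as CPM, counts scaled to a common library size, after TMM scaling, in the order of replicates 1 to 5. No 2 libraries of a group agreed within sampling noise. The pan-leukocyte gene *Ptprc* was at 412 to 1058 CPM over the 35 libraries, *Kit* at 30.3 to 345 CPM and *Cd34* at 22.5 to 247 CPM, while the lymphoid genes *Cd3e* and *Cd79a* reached at most 0.205 and 0.116 CPM. Of 11 lymphoid markers, 3 passed the filter on low counts. Against Empty, 1 was higher in G-NHX9 and in G-NHX9-8FA, and 1 was higher and 1 lower in G-NHX9-midi (edgeR adjusted p under 0.05). Markers of mature myeloid cells were also abundant in the cultures (the 13 neutrophil markers summed to 5618 CPM or more in every library), so the libraries held differentiating cells beside any remaining progenitors. In such bulk samples fewer cells of a type and less RNA per cell cannot be told apart. The labels do not say whether the 5 libraries of a group came from separate animals or transductions. The paper describes replicate transductions of cells isolated in parallel, but not how these make up the 5 libraries. The p-values therefore measure the spread between these libraries. In several groups replicates 4 and 5 stood apart from replicates 1 to 3 in the members' levels, and results that change between these sets are given for both, as are results that change when the 3 libraries labelled with an older age are left out.

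Nucleolar assembly genes rose over Empty in every construct, and the number that rose ranged from 18 to 44 of the 47. A gene is said to have risen or fallen where its adjusted p (edgeR, quasi-likelihood test, adjusted by the Benjamini-Hochberg method over every gene tested) was below 0.05. In G-NHX9 36 of the 47 rose, where 16.9% of all genes tested rose, and the median log2 fold change of the 47 was 0.55 against 0.01 over all genes. In G-NHX9-midi 44 rose, where 20.5% of all genes rose, with a median of 0.67 against 0.02. In G-NHX9-21FGAA the count was 34 against a background of 14.7% of all genes, with a median of 0.54 against -0.02, and it depended on the libraries: 18 rose in replicates 1 to 3 alone, where 7.99% of all genes did, and 43 in replicates 4 and 5 alone, where 16.6% did. For G-NHX9-midi-21FGAA the count was 27, with 9.59% of all genes rising and medians of 0.45 against -0.02, and for G-NHX9-DDNA it was 26, with 9.85% of all genes rising and medians of 0.47 against -0.01. The smallest count was that of G-NHX9-8FA, in which 18 rose where 13.4% of all genes rose, with a median of 0.29 against 0.03. All 6 comparisons share the Empty libraries and are therefore not independent of each other.

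In G-NHX9, G-NHX9-midi-21FGAA and G-NHX9-DDNA the replicate numbers were taken to pair the libraries with those of Empty. The rule for this used same-numbered libraries alone, so it cannot tell such pairs from a split of the libraries that the groups share. Adding the number as a block, in 1 fit over all groups, gave more calls among the members and among all genes in each. That fit also holds groups whose numbers did not pass the rule against Empty. In G-NHX9-midi-21FGAA 34 members were higher and 1 lower with the block, where 13.2% of all genes were higher and 12.1% lower. The added higher members were *Fbl*, *Rrp9*, *Wdr43*, *Imp4*, *Ltv1*, *Pes1* and *Rrs1*, with log2 fold changes of 0.24 to 0.49 in that fit, and the lower one was *Imp3*. By role the counts there became 4 of 4 box C/D proteins, 5 of 5 UTP-A proteins, 5 of 10 other processome proteins, 4 of 4 late small subunit factors and 7 of 10 large subunit factors. In G-NHX9-DDNA 31 were higher with the block (13.3% of all genes), the added members being *Npm1*, *Ncl*, *Wdr43*, *Emg1* and *Nat10*, which made 6 of 6 phosphoproteins and helicases, 4 of 5 UTP-A proteins and 5 of 10 other processome proteins. In G-NHX9 37 were higher (20.4% of all genes), *Nop14* being added. Counts by role below are those without the block.

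No member fell against Empty in edgeR's test in any of the 6 comparisons, where 15.2% of all genes fell in G-NHX9, 13.2% in G-NHX9-8FA, 20.0% in G-NHX9-midi, 12.5% in G-NHX9-21FGAA, 7.32% in G-NHX9-midi-21FGAA and 7.35% in G-NHX9-DDNA. At an unadjusted p under 0.05, 1 member was lower, *Imp3* in G-NHX9-midi-21FGAA, which DESeq2 also called lower, and DESeq2 called 0 members lower in the other 5 comparisons. *Imp3* (ENSMUSG00000032288.9), which encodes a protein of the small subunit processome bound to the U3 snoRNA, was at 26.2, 27.0, 25.3, 24.8 and 22.5 CPM in Empty and at 21.4, 22.7, 24.2, 17.7 and 19.9 CPM in G-NHX9-midi-21FGAA. The groups overlapped in part, with a log2 fold change of -0.25 ± 0.09 (SE) and an edgeR adjusted p of 0.06, and of 0.0075 with the replicate number as a block. Without the 3 libraries labelled with an older age, the number of members that rose was 24 in G-NHX9 (13.2% of all genes in that fit), 32 in G-NHX9-midi (14.2%), 24 in G-NHX9-21FGAA (10.0%), 11 in G-NHX9-midi-21FGAA (4.17%), 10 in G-NHX9-DDNA (5.70%) and 7 in G-NHX9-8FA (8.66%), with 3 Empty libraries left in the fit. Leaving out only Empty replicate 5 or 4 took the G-NHX9-8FA count to 9 or 10, and the shares of all genes in those fits are not given.

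**Figure D1:**
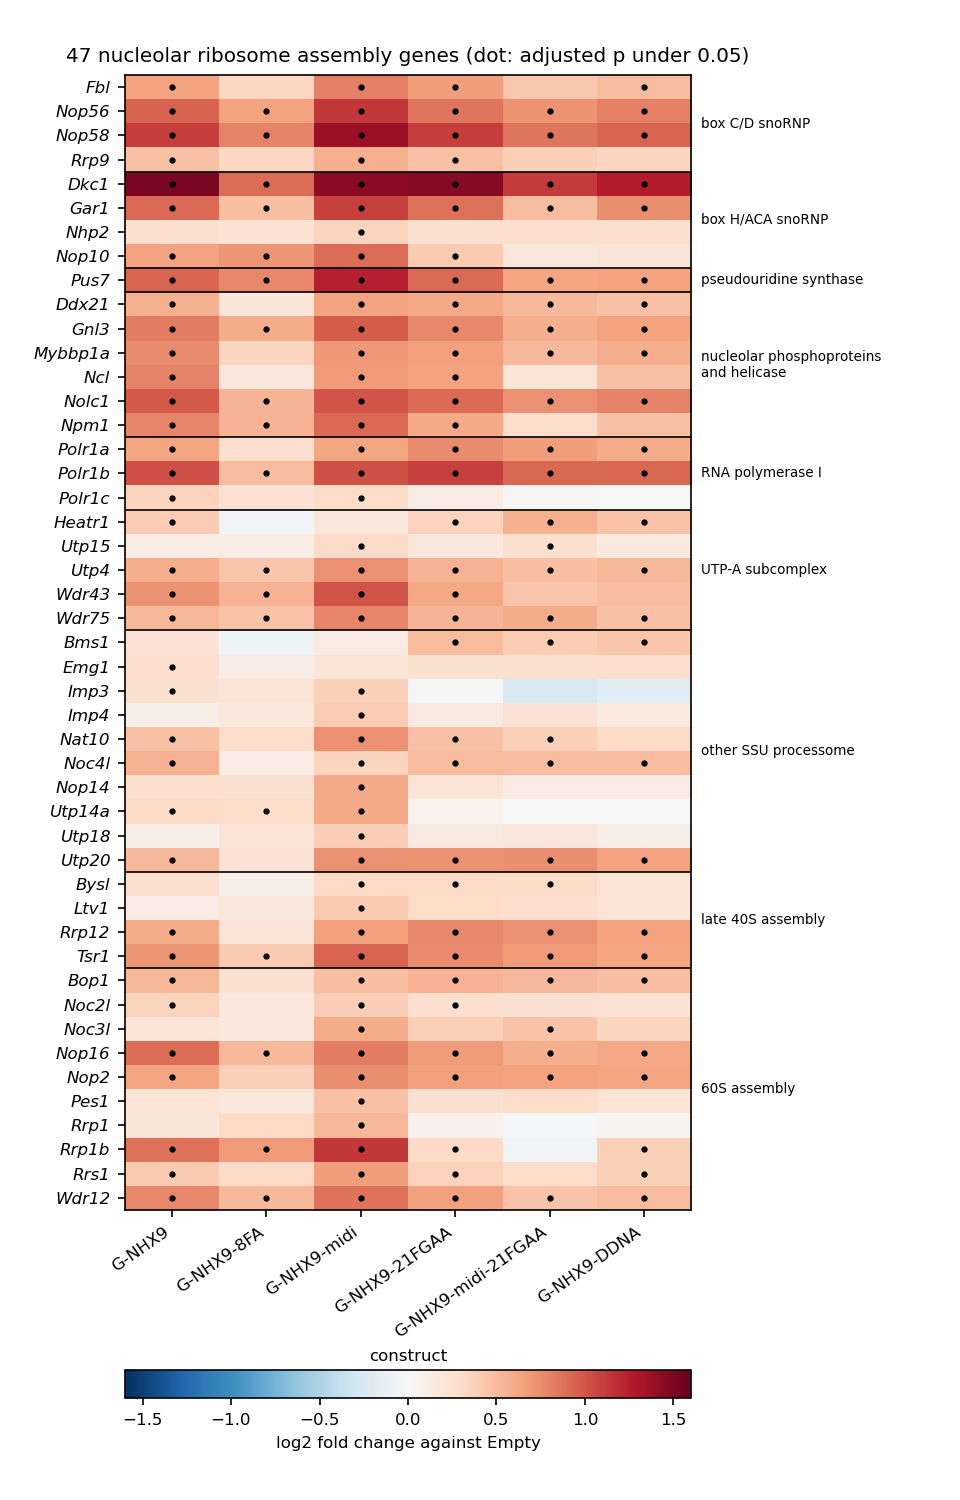
Log2 fold change over Empty of the 47 nucleolar assembly genes (rows, grouped by role) in the 6 constructs (columns), from edgeR's fit over all 35 libraries. Colour gives the log2 fold change and dots mark genes with an adjusted p below 0.05. Nearly every cell is on the higher side, the strongest colours are those of *Dkc1* (0.89 to 1.51), and dots are most frequent for G-NHX9-midi (44) and least for G-NHX9-8FA (18).

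The heat map of fold changes sets the 6 comparisons with Empty side by side. The libraries themselves separated less cleanly than the fitted means. In G-NHX9-midi 37 members were higher in each of the 5 libraries than in any Empty library, where 13.4% of all genes tested did so, and in G-NHX9 29 were, where 10.6% of all genes did. G-NHX9-midi-21FGAA had 23 such members (5.98% of all genes), G-NHX9-21FGAA 22 (9.05%), G-NHX9-8FA 16 (8.32%) and G-NHX9-DDNA 7 (5.82%).

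The summed level of the 47 genes gives each library's own value. Empty libraries stood at 2322, 2176, 1990, 1687 and 1655 CPM (mean 1966 ± 294, SD, n = 5) and G-NHX9 libraries at 2874, 2998, 2894, 2643 and 3272 CPM (2936 ± 228). Every G-NHX9 library was above every Empty library. G-NHX9-midi had the highest mean, at 3656, 3267, 3401, 2874 and 2666 CPM (3173 ± 400), and G-NHX9-21FGAA ran the other way over the replicate numbers, at 2527, 2483, 2547, 3112 and 3385 CPM (2811 ± 412). G-NHX9-midi was the higher of these in replicates 1 to 3, and G-NHX9-21FGAA in replicates 4 and 5. G-NHX9-DDNA was at 2885, 3063, 2960, 2387 and 1938 CPM (2647 ± 474), so that its replicate 5 lay below the 3 highest Empty libraries. G-NHX9-midi-21FGAA (2393 to 2735 CPM, 2563 ± 154) and G-NHX9-8FA (2323 to 2777 CPM, 2506 ± 185) had the lowest means of the constructs, and their lowest libraries were above the highest Empty library. *Npm1* makes a large part of these sums, so they follow the most abundant members more than the counts of genes do.

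**Figure D2:**
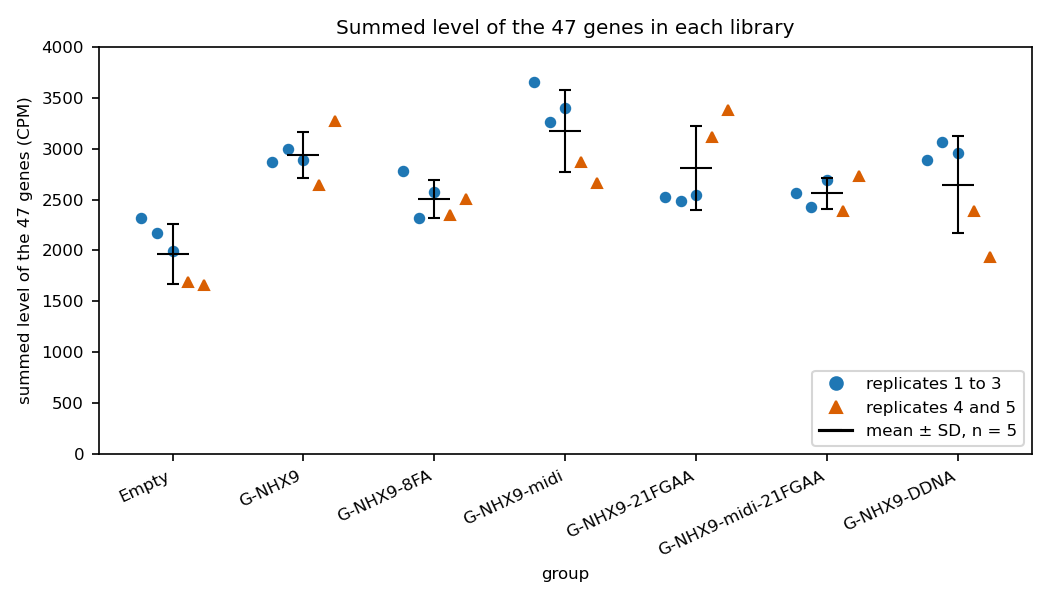
Summed level of the 47 nucleolar assembly genes in CPM (vertical axis, linear, from 0) in each library of the 7 groups, with circles for replicates 1 to 3, triangles for replicates 4 and 5, and a line with error bars for the mean and SD of the 5 libraries. The Empty libraries sit between 1655 and 2322 CPM and those of G-NHX9 between 2643 and 3272 CPM, and G-NHX9-DDNA has the widest spread, from 1938 to 3063 CPM.

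Proteins of box C/D snoRNPs (*Fbl*, *Nop56*, *Nop58* and *Rrp9*) rose to different extents among the groups: 4 of 4 in G-NHX9, G-NHX9-midi and G-NHX9-21FGAA, 3 in G-NHX9-DDNA, and 2 each in G-NHX9-midi-21FGAA and G-NHX9-8FA. Fibrillarin, the enzyme that methylates the ribose of ribosomal RNA, is encoded by *Fbl* (ENSMUSG00000046865.7, chr7:28169710-28179269 on the plus strand, GRCm38). It was at 29.6, 27.1, 28.1, 17.7 and 17.5 CPM in Empty, at 35, 43.1, 40.02, 34.5 and 35 CPM in G-NHX9 and at 45.7, 42.5, 45.3, 38.6 and 38.9 CPM in G-NHX9-midi. All libraries of both constructs were above all Empty libraries, and Empty replicates 4 and 5 were well below the other 3. The log2 fold change over Empty was 0.64 ± 0.15 in G-NHX9 (edgeR adjusted p = 0.0014), 0.81 ± 0.15 in G-NHX9-midi and 0.34 ± 0.15 in G-NHX9-8FA (adjusted p = 0.11). In G-NHX9-midi-21FGAA it was 0.43 ± 0.15 with an edgeR adjusted p of 0.0505, just short of the threshold, and of 0.0082 with the replicate block.

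*Nop56* (ENSMUSG00000027405.16), a scaffold protein of the same particle whose gene also hosts snoRNA genes, was at 73.1, 63.2, 56.8, 46.7 and 46.6 CPM in Empty and at 97.9, 117, 110, 107 and 120 CPM in G-NHX9. The groups did not overlap. It rose in each construct, by 0.94 ± 0.14 on the log2 scale in G-NHX9, 1.13 ± 0.14 in G-NHX9-midi, 0.86 ± 0.14 in G-NHX9-21FGAA, 0.80 ± 0.14 in G-NHX9-DDNA, 0.72 ± 0.14 in G-NHX9-midi-21FGAA and 0.64 ± 0.14 in G-NHX9-8FA. Its partner *Nop58* (ENSMUSG00000026020.9) was among the 3 members with the largest rise in each of these comparisons, from 0.79 ± 0.24 in G-NHX9-8FA to 1.37 ± 0.24 in G-NHX9-midi. The libraries of *Nop58* were more scattered, at 47, 32.7, 31.1, 21.8 and 19.2 CPM in Empty and at 94.8, 94.6, 97.1, 57.9 and 47.9 CPM in G-NHX9-midi. Replicates 4 and 5 were the lowest in both groups, and the lowest G-NHX9-midi library was just above the highest Empty library.

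Among the box H/ACA proteins, dyskerin, the pseudouridine synthase encoded by *Dkc1* (ENSMUSG00000031403.14, chrX:75095854-75109777 on the plus strand, GRCm38) and mutated in dyskeratosis congenita, had the largest rise of all 47 members in each of the 6 comparisons with Empty. It was at 23.6, 15.8, 16.3, 13 and 14.2 CPM in Empty, at 46.4, 48.4, 40.5, 41.8 and 59.4 CPM in G-NHX9 and at 34.4, 24.5, 31.9, 30.1 and 33.1 CPM in G-NHX9-8FA. The G-NHX9 libraries were all above the Empty libraries and above all G-NHX9-8FA libraries, which were themselves all above Empty. The log2 fold changes over Empty were 1.51 ± 0.20 in G-NHX9 (edgeR adjusted p = 3.3e-07), 1.45 ± 0.20 in G-NHX9-21FGAA, 1.44 ± 0.20 in G-NHX9-midi, 1.25 ± 0.19 in G-NHX9-DDNA, 1.12 ± 0.19 in G-NHX9-midi-21FGAA and 0.89 ± 0.19 in G-NHX9-8FA. In G-NHX9-DDNA, replicates 1 to 3 were at 46.2, 48.6 and 48.9 CPM, but replicate 5 was at 22.4 CPM, just below the highest Empty library.

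The small subunit of the same particle, *Nop10* (ENSMUSG00000027133.3), had another order of groups. It was at 27.4, 30.2, 27.2, 24.5 and 22.2 CPM in Empty, at 47.9, 46.2, 46.5, 52.5 and 51.4 CPM in G-NHX9-midi and at 26.8, 30.7, 31.7, 29.1 and 31.2 CPM in G-NHX9-midi-21FGAA. G-NHX9-midi stood clear of Empty, and G-NHX9-midi-21FGAA overlapped it. *Nop10* rose in G-NHX9-midi by 0.89 ± 0.10, in G-NHX9-8FA by 0.70 ± 0.10, in G-NHX9 by 0.65 ± 0.10 and in G-NHX9-21FGAA by 0.42 ± 0.10 on the log2 scale, while the values were 0.21 ± 0.10 in G-NHX9-DDNA and 0.19 ± 0.10 in G-NHX9-midi-21FGAA (edgeR adjusted p = 0.15 and 0.21). *Gar1*, the third protein, rose in each of the 6 comparisons. *Nhp2*, the RNA-binding subunit, rose in G-NHX9-midi and had log2 fold changes of 0.23 to 0.26 in the other 5.

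The nucleolar phosphoproteins and helicase rose in 6 of 6 genes in G-NHX9, G-NHX9-midi and G-NHX9-21FGAA. In G-NHX9-midi-21FGAA and G-NHX9-DDNA 4 rose, and in G-NHX9-8FA 3 did. *Npm1* (ENSMUSG00000057113.13, chr11:33152287-33163206 on the minus strand, GRCm38), whose protein chaperones ribosomal proteins and histones, was at 386, 359, 304, 230 and 211 CPM in Empty, at 549, 554, 506, 426 and 516 CPM in G-NHX9 and at 718, 628, 591, 511 and 334 CPM in G-NHX9-midi. The G-NHX9 libraries did not overlap Empty, and G-NHX9-midi replicate 5 did. The rise was 0.78 ± 0.19 on the log2 scale in G-NHX9 (edgeR adjusted p = 0.0015), 0.90 ± 0.19 in G-NHX9-midi, 0.61 ± 0.19 in G-NHX9-21FGAA and 0.56 ± 0.19 in G-NHX9-8FA. In G-NHX9-midi-21FGAA the value was 0.28 ± 0.18 (adjusted p = 0.33) and in G-NHX9-DDNA 0.47 ± 0.19, with an edgeR adjusted p of 0.073 and of 0.028 with the replicate block.

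Nucleolin, encoded by *Ncl* (ENSMUSG00000026234.12, chr1:86344719-86359400 on the minus strand, GRCm38), binds ribosomal DNA and its transcript. It was at 153, 108, 108, 93.4 and 98.9 CPM in Empty, at 213, 178, 137, 133 and 313 CPM in G-NHX9 and at 142, 112, 154, 96.5 and 131 CPM in G-NHX9-8FA. Empty replicate 1 was above G-NHX9 replicates 3 and 4, and G-NHX9-8FA overlapped both other groups. *Ncl* rose by 0.80 ± 0.21 in G-NHX9, 0.68 ± 0.21 in G-NHX9-midi and 0.65 ± 0.21 in G-NHX9-21FGAA on the log2 scale, with 0.18 ± 0.21 in G-NHX9-8FA (edgeR adjusted p = 0.58). Its value in G-NHX9-DDNA was 0.47 ± 0.21, with an edgeR adjusted p of 0.12 and of 0.04 with the replicate block.

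*Gnl3* (ENSMUSG00000042354.6) encodes nucleostemin, a GTP-binding protein known from stem cells. It was at 30.7, 31.3, 29.8, 20.2 and 19.2 CPM in Empty and at 47.2, 49.7, 43.6, 42.6 and 47.9 CPM in G-NHX9, without overlap. It rose in each construct, by 0.58 ± 0.17 in G-NHX9-midi-21FGAA to 0.97 ± 0.17 in G-NHX9-midi on the log2 scale. *Ddx21* (ENSMUSG00000020075.7), a helicase that acts on both RNA polymerase I transcription and processing, was at 104, 97.9, 87.8, 81.0 and 75.0 CPM in Empty, at 127, 126, 126, 120 and 162 CPM in G-NHX9 and at 110, 93.7, 112, 89.1 and 106 CPM in G-NHX9-8FA. G-NHX9 was above Empty in all libraries, and G-NHX9-8FA overlapped Empty. *Ddx21* rose by 0.57 ± 0.13 in G-NHX9 and had a value of 0.19 ± 0.13 in G-NHX9-8FA (edgeR adjusted p = 0.3).

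The 3 subunits of RNA polymerase I rose in G-NHX9 and G-NHX9-midi, 2 rose in G-NHX9-21FGAA, G-NHX9-midi-21FGAA and G-NHX9-DDNA, and 1 rose in G-NHX9-8FA. *Polr1b* (ENSMUSG00000027395.15, chr2:129100995-129126594 on the plus strand, GRCm38), the second-largest subunit, was at 14.4, 13.7, 12.8, 12.7 and 11.6 CPM in Empty, at 19.9, 25.2, 24.8, 25.7 and 37.7 CPM in G-NHX9 and at 18.5, 22.6, 20.2, 33.6 and 44.2 CPM in G-NHX9-21FGAA. Empty libraries were tight, and no library of either construct reached down to them. The rise was 1.03 ± 0.18 in G-NHX9 (edgeR adjusted p = 2.9e-05), 1.09 ± 0.18 in G-NHX9-21FGAA, 1.02 ± 0.18 in G-NHX9-midi, 0.92 ± 0.18 in G-NHX9-DDNA, 0.91 ± 0.18 in G-NHX9-midi-21FGAA and 0.51 ± 0.18 in G-NHX9-8FA on the log2 scale. The largest subunit, *Polr1a* (ENSMUSG00000049553.11), was at 28.4, 31.0, 24.5, 27.1 and 24.5 CPM in Empty and at 35.9, 40.9, 39.3, 42.8 and 50.5 CPM in G-NHX9. The groups did not overlap, and the log2 fold change was 0.63 ± 0.15. *Polr1c*, which RNA polymerase I shares with RNA polymerase III, rose in G-NHX9 and G-NHX9-midi alone among the 6 (0.36 and 0.30), with values between -0.01 and 0.23 in the other 4.

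**Figure D3:**
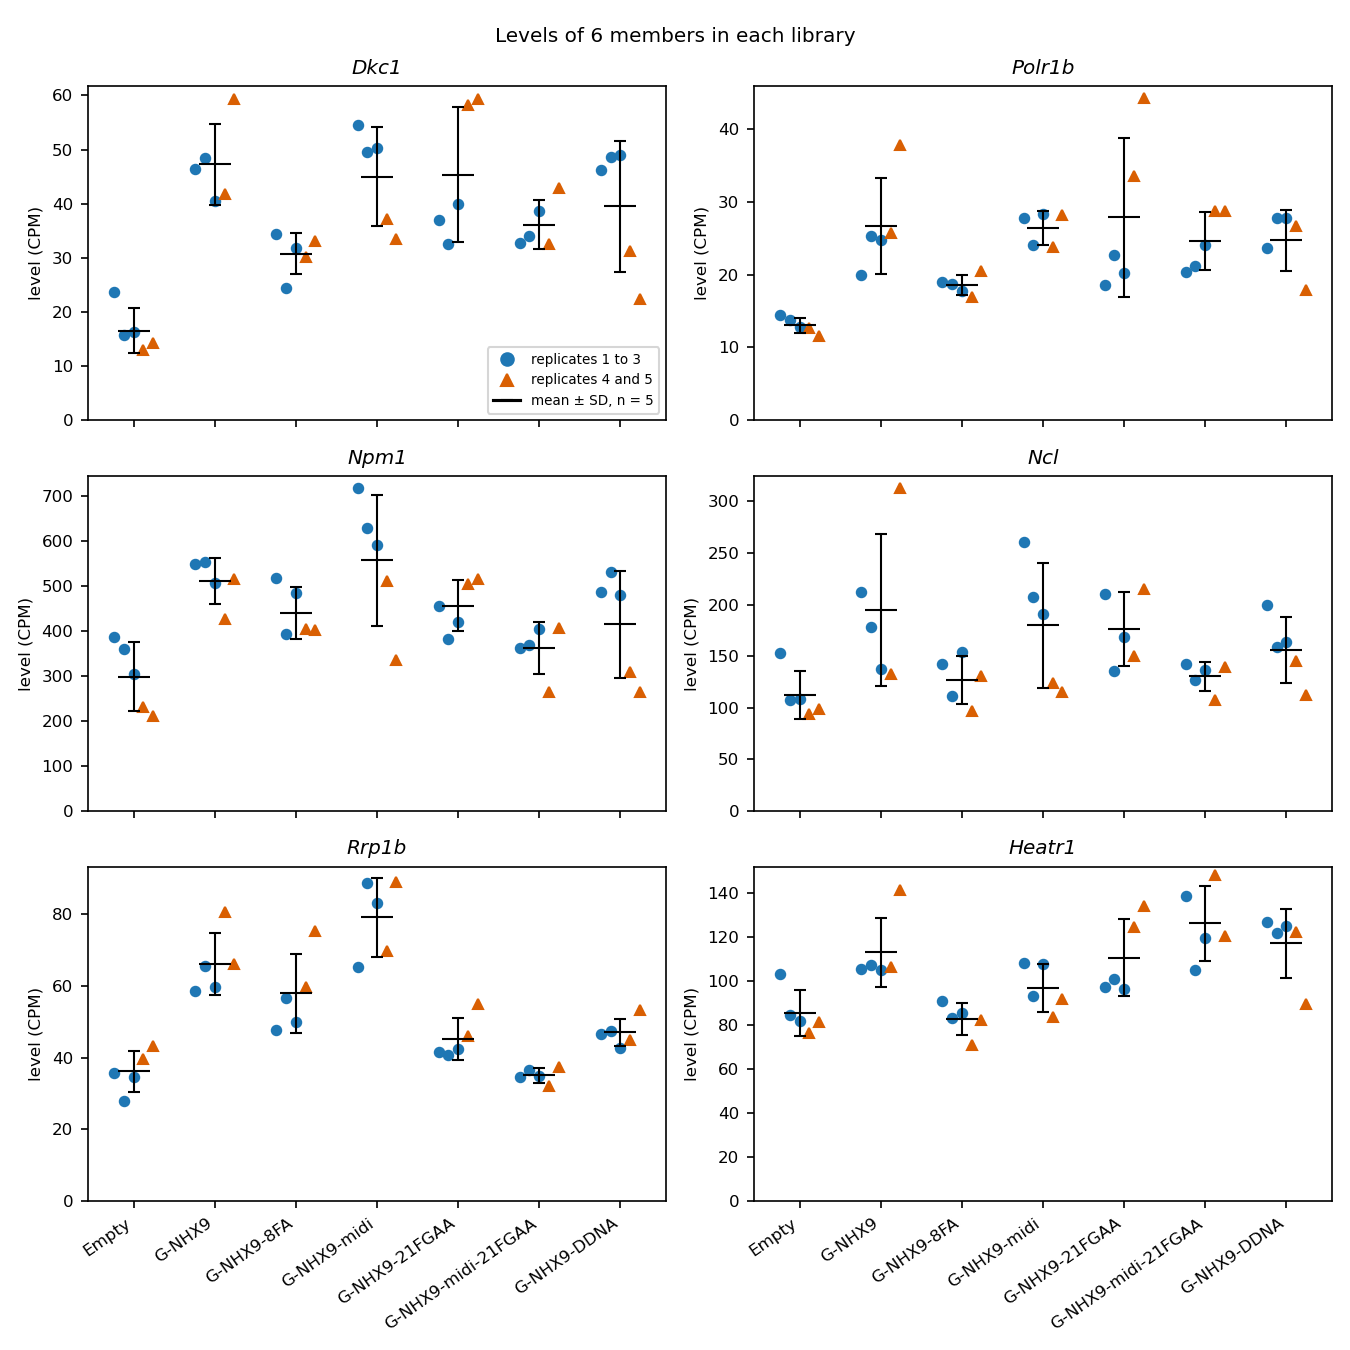
Levels in CPM of single nucleolar assembly genes (1 panel a gene, linear vertical axis from 0) in each of the 5 libraries of the 7 groups, with circles for replicates 1 to 3, triangles for replicates 4 and 5, and a line with error bars for the mean and SD of the 5 libraries. *Dkc1* and *Polr1b* have lower means in Empty than in every construct, with the widest scatter in G-NHX9-21FGAA. The Empty libraries are tight for *Polr1b* and spread more for *Dkc1*, where G-NHX9-DDNA replicate 5 lies below the highest of them. *Rrp1b* is as low in G-NHX9-midi-21FGAA as in Empty.

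Small subunit processome proteins showed a graded picture. Of the 5 UTP-A proteins, the first module to bind the transcript, 4 rose in G-NHX9, G-NHX9-midi, G-NHX9-21FGAA and G-NHX9-midi-21FGAA and 3 in G-NHX9-8FA and G-NHX9-DDNA. Of the 10 other processome proteins, 8 rose in G-NHX9-midi, 6 in G-NHX9, 4 in G-NHX9-21FGAA and G-NHX9-midi-21FGAA, 3 in G-NHX9-DDNA and 1 in G-NHX9-8FA. *Heatr1* (ENSMUSG00000050244.8), a UTP-A protein also needed for RNA polymerase I transcription, was at 103, 84.5, 81.9, 76.3 and 81.5 CPM in Empty, at 109, 93.4, 108, 83.6 and 91.7 CPM in G-NHX9-midi and at 139, 105, 120, 148 and 121 CPM in G-NHX9-midi-21FGAA. G-NHX9-midi overlapped Empty, and all G-NHX9-midi-21FGAA libraries were above Empty. *Heatr1* rose by 0.56 ± 0.12 in G-NHX9-midi-21FGAA, 0.45 ± 0.12 in G-NHX9-DDNA, 0.40 ± 0.12 in G-NHX9 and 0.37 ± 0.12 in G-NHX9-21FGAA on the log2 scale, with values of 0.18 ± 0.12 in G-NHX9-midi and -0.05 ± 0.12 in G-NHX9-8FA (edgeR adjusted p = 0.22 and 0.81).

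*Bms1*, a GTPase of the processome, also rose in the constructs with changed phenylalanine-glycine pairs and in G-NHX9-DDNA (0.51 ± 0.14 in G-NHX9-21FGAA, 0.40 ± 0.14 in G-NHX9-midi-21FGAA and 0.44 ± 0.14 in G-NHX9-DDNA), where the values were 0.23 ± 0.14 in G-NHX9 and 0.13 ± 0.14 in G-NHX9-midi. *Utp14a*, a processome protein that recruits a helicase, ran the other way. It was at 36.6, 35.6, 35, 30.3 and 30.9 CPM in Empty, at 61.0, 50.6, 53.6, 48.3 and 41.9 CPM in G-NHX9-midi and at 35.7, 30.9, 35.2, 29.9 and 36.1 CPM in G-NHX9-midi-21FGAA. G-NHX9-midi was above both other groups in every library, and those overlapped. *Nat10* (ENSMUSG00000027185.14), which acetylates cytidines of the small subunit RNA, was at 20.2, 20.4, 20.2, 19.8 and 20.9 CPM in Empty and at 24.7, 27.5, 27.9, 26.9 and 33.6 CPM in G-NHX9. Empty varied by a standard deviation of only 0.407 CPM, and every G-NHX9 library was above it (log2 fold change 0.47 ± 0.12). In G-NHX9-DDNA *Nat10* had a log2 fold change of 0.31 ± 0.11, with an edgeR adjusted p of 0.055, and of 0.035 with the replicate block.

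Of the 4 late small subunit factors, which act on the particle on its way to the cytoplasm, 4 rose in G-NHX9-midi, 3 in G-NHX9-21FGAA and G-NHX9-midi-21FGAA, 2 in G-NHX9 and G-NHX9-DDNA and 1 in G-NHX9-8FA. *Tsr1*, a GTPase-like factor, was the 1 that rose in G-NHX9-8FA, with a log2 fold change of 0.41. *Pus7* (ENSMUSG00000057541.14), a pseudouridine synthase that works without a guide RNA, was at 14.7, 16.6, 14.1, 12.6 and 10.8 CPM in Empty and at 34.8, 34.9, 34.2, 27.7 and 29.7 CPM in G-NHX9-midi. These did not overlap, and *Pus7* rose in each construct, by 0.63 ± 0.13 in G-NHX9-midi-21FGAA to 1.23 ± 0.13 in G-NHX9-midi on the log2 scale.

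Of the 10 large subunit assembly factors, all 10 rose in G-NHX9-midi, 7 in G-NHX9 and G-NHX9-21FGAA, 6 in G-NHX9-DDNA, 5 in G-NHX9-midi-21FGAA and 3 in G-NHX9-8FA. *Bop1* (ENSMUSG00000022557.10) and *Pes1* (ENSMUSG00000020430.12) encode partners in the PeBoW complex, which processes the large subunit RNAs. *Bop1* was at 33.9, 33.4, 32.1, 27.9 and 27.2 CPM in Empty and at 35.5, 44.6, 46.2, 42.4 and 54.1 CPM in G-NHX9, with no overlap and a log2 fold change of 0.53 ± 0.14. *Pes1* was at 70.9, 71.2, 66.6, 47.5 and 49.5 CPM in Empty, at 70.3, 77.7, 81.3, 67.3 and 60.2 CPM in G-NHX9 and at 91.5, 79.1, 89.2, 84.3 and 78.8 CPM in G-NHX9-midi. Only G-NHX9-midi among these lay clear of Empty for *Pes1*, with a rise of 0.47 ± 0.12, and G-NHX9 overlapped Empty, with a log2 fold change of 0.22 ± 0.12 (edgeR adjusted p = 0.15).

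The paralogs *Rrp1* (ENSMUSG00000061032.8) and *Rrp1b* (ENSMUSG00000058392.12, chr17:32036100-32062865 on the plus strand, GRCm38), both of the yeast Rrp1 family of large subunit factors, differed from each other. *Rrp1* was at 122, 117, 119, 78.9 and 77.6 CPM in Empty, at 129, 133, 135, 108 and 82.7 CPM in G-NHX9 and at 158, 154, 153, 144 and 136 CPM in G-NHX9-midi. Only the last of these lay clear of Empty. *Rrp1* rose in G-NHX9-midi by 0.53 ± 0.15 on the log2 scale and had values between -0.03 and 0.32 elsewhere. *Rrp1b* was at 35.8, 27.8, 34.7, 39.5 and 43.2 CPM in Empty, at 58.7, 65.4, 59.8, 80.5 and 66.1 CPM in G-NHX9, at 65.2, 88.6, 83.0, 69.7 and 89.0 CPM in G-NHX9-midi and at 34.7, 36.5, 34.8, 32.0 and 37.3 CPM in G-NHX9-midi-21FGAA. G-NHX9 and G-NHX9-midi were above all Empty libraries, and G-NHX9-midi-21FGAA lay inside the range of Empty. Its log2 fold change over Empty was 1.13 ± 0.12 in G-NHX9-midi (edgeR adjusted p = 4.5e-09), 0.87 ± 0.12 in G-NHX9, 0.68 ± 0.12 in G-NHX9-8FA, 0.38 ± 0.12 in G-NHX9-DDNA, 0.32 ± 0.12 in G-NHX9-21FGAA and -0.04 ± 0.12 in G-NHX9-midi-21FGAA (adjusted p = 0.84).

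The smallest rises that passed the test were those of *Imp3* (0.24), *Emg1*, a methyltransferase (0.26), and *Utp14a* (0.30) in G-NHX9, and of *Polr1c* (0.30), *Utp15*, a UTP-A protein (0.31), and *Bysl*, a late small subunit factor (0.32), in G-NHX9-midi. In G-NHX9-8FA they were *Utp14a* (0.29), *Tsr1* (0.41) and *Utp4*, a UTP-A protein (0.44), and in G-NHX9-21FGAA *Noc2l*, a large subunit factor (0.27), *Bysl* (0.31) and *Rrp1b* (0.32). *Utp15* (0.26), *Bysl* (0.31) and *Nat10* (0.38) were the smallest in G-NHX9-midi-21FGAA, and *Rrp1b* (0.38), *Rrs1*, a factor of the 5S particle (0.39), and *Bms1* (0.44) in G-NHX9-DDNA, all as log2 fold changes over Empty.

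Comparisons between constructs set the changes to the fusion against each other, and fewer members were called in them. In the fit of all libraries the share of the 47 called in a direction was near or below that of all genes. The exception was the members lower in G-NHX9-midi-21FGAA than in G-NHX9-midi. The other counts are therefore no result about the members as a set. Against G-NHX9, G-NHX9-8FA had 5 members lower and 0 higher, where 8.04% of all genes tested were lower and 6.43% higher, and 15 members were lower and 0 higher at an unadjusted p under 0.05 (DESeq2 called 9 lower and 0 higher). The shares of all genes are those of edgeR's adjusted test. Shares at an unadjusted p or in DESeq2 are not given here or in the comparisons below, so those member counts have no background beside them. *Dkc1* and *Ncl* fell by 0.62 on the log2 scale (SE 0.19 and 0.21, edgeR adjusted p = 0.026 and 0.046), *Polr1b* fell by 0.52, *Heatr1* by 0.45 and *Noc4l*, a processome factor, by 0.43. For *Heatr1* the G-NHX9 libraries were at 105, 107, 105, 106 and 141 CPM and the G-NHX9-8FA libraries at 91.2, 83.3, 85.8, 71.1 and 82.5 CPM. These did not overlap, which held for 6 members in the lower direction, where 5.69% of all genes did so. Without G-NHX9-8FA replicate 2 or without G-NHX9 replicate 5, 1 member was called lower, and 2 or 3 were without G-NHX9-8FA replicate 1 or 3 or G-NHX9 replicate 2. Without TMM scaling 17 were, in a fit in which the median of all genes also moved lower. Shares of all genes without TMM or without single libraries are not given for this comparison. In replicates 1 to 3 alone 10 were lower (7.07% of all genes), and in replicates 4 and 5 alone 3 were (5.95%).

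G-NHX9-midi against G-NHX9 had 3 members higher and 0 lower in edgeR's test, where 8.50% of all genes were higher and 11.2% lower, with 13 higher and 0 lower at an unadjusted p under 0.05 (DESeq2 called 3 higher and 0 lower). *Nop14*, a processome protein, was at 26.9, 27.4, 27.1, 21.6 and 24.9 CPM in G-NHX9 and at 35.1, 34.6, 36.7, 27.5 and 27.0 CPM in G-NHX9-midi, overlapping in part, with a rise of 0.33 ± 0.11 (edgeR adjusted p = 0.03). *Imp4*, a partner of *Imp3*, rose by 0.31 ± 0.09 without overlap (54.3 to 62.0 CPM against 68.3 to 77.8 CPM), and *Utp14a* rose by 0.30 ± 0.09. Besides *Imp4*, *Rrp1* and *Nop10* were higher in every G-NHX9-midi library, making 3 members, where 5.42% of all genes were. The count was 18 in replicates 1 to 3 alone (6.08% of all genes), 1 in replicates 4 and 5 alone (8.24%), and 0 without TMM scaling. Leaving out single libraries, it was 1 without G-NHX9 replicate 5 or G-NHX9-midi replicate 1 and 6 without G-NHX9-midi replicate 5.

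G-NHX9-21FGAA against G-NHX9 had 2 members lower, *Rrp1b* (-0.55 ± 0.12, edgeR adjusted p = 0.00092) and *Imp3* (-0.27 ± 0.09), and 0 higher, where 8.34% of all genes were lower and 8.91% higher, with 5 lower and 1 higher at an unadjusted p under 0.05 (DESeq2 called 2 lower and 0 higher). With the replicate number as a block, 3 were lower and 1 higher, where 11.3% of all genes were lower and 11.6% higher. The added genes were *Utp14a* and *Bms1*. For *Rrp1b* the G-NHX9-21FGAA libraries were at 41.5, 40.9, 42.5, 46.0 and 55.0 CPM, all below the G-NHX9 libraries, which began at 58.7 CPM. It was the 1 member whose libraries were all lower (5.13% of all genes were), and *Bms1* the 1 whose libraries were all higher (6.38%). In replicates 1 to 3 alone 8 members were lower (7.44% of all genes), and in replicates 4 and 5 alone 0 were, with 1 higher (5.85%). *Imp3* lost its call in 7 of the 10 fits that left out 1 library. The remaining members had log2 differences between -0.25 and 0.29.

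G-NHX9-DDNA against G-NHX9 had 5 members lower and 0 higher, where 11.4% of all genes were lower and 10.7% higher, with 8 lower and 0 higher at an unadjusted p under 0.05 (DESeq2 called 5 lower and 0 higher). *Rrp1b* fell by 0.49 ± 0.12, *Nop10* by 0.43 ± 0.10, *Imp3* by 0.42 ± 0.09, *Polr1c* by 0.37 and *Utp14a* by 0.30 ± 0.09 on the log2 scale. *Nop10* was at 40.7, 41.7, 42.0, 42.2 and 39.1 CPM in G-NHX9 and at 29.3, 36.1, 32.3, 26.9 and 27.6 CPM in G-NHX9-DDNA, without overlap, which held for 2 members (7.21% of all genes). *Dkc1* (-0.26 ± 0.19) and *Polr1b* (-0.11 ± 0.17) did not pass the test in this comparison, and both rose over Empty in G-NHX9-DDNA. G-NHX9-DDNA replicates 4 and 5 were lower than its other 3 for many members: in replicates 1 to 3 alone 32 members rose over Empty (11.9% of all genes), and in replicates 4 and 5 alone edgeR called 0, where 13 genes of the whole table were called in either direction. At an unadjusted p under 0.05, 26 members were higher in that fit. The number of all genes at that looser threshold is not given, so the 26 cannot be set against the 13. Against G-NHX9, replicates 1 to 3 alone gave 5 lower and 2 higher (11.4% and 11.0% of all genes), and replicates 4 and 5 alone 11 lower and 0 higher (4.15% and 6.81%).

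Changing the 21 phenylalanine-glycine pairs within the shortened fusion went with lower levels of many members. Against G-NHX9-midi, G-NHX9-midi-21FGAA had 16 members lower and 1 higher, where 22.2% of all genes tested were lower and 21.0% higher, and the median log2 difference of the 47 was -0.24. *Rrp1b* fell by 1.17 ± 0.12 (edgeR adjusted p = 1.3e-09), *Nop10* by 0.71 ± 0.10, *Imp3* by 0.63 ± 0.09 and *Npm1* by 0.62 ± 0.19 on the log2 scale, followed by *Utp14a* (-0.61 ± 0.09), *Gar1* and *Pus7* (both -0.60), *Rrp1* (-0.56 ± 0.15) and *Nop14* (-0.48 ± 0.11). *Npm1* was at 362, 368, 405, 264 and 407 CPM in G-NHX9-midi-21FGAA, against the 334 to 718 CPM of G-NHX9-midi, and these overlapped. For *Rrp1b*, *Nop10* and *Imp3* they did not, which held for 11 members in the lower direction, where 16.0% of all genes did so. *Heatr1* was the member that rose, by 0.38 ± 0.12 (edgeR adjusted p = 0.0078).

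By role, the 16 that fell were 4 of 10 large subunit factors, 4 of 10 other processome proteins, 2 of 4 box C/D proteins (*Nop56*, -0.40 ± 0.14, and *Fbl*, -0.38 ± 0.15), 2 of 4 box H/ACA proteins and 1 each of the phosphoproteins, RNA polymerase I, the UTP-A proteins and *Pus7*, with none of the 4 late small subunit factors. In replicates 1 to 3 alone 27 members were lower and 0 higher, where 19.2% of all genes were lower and 19.5% higher, and in replicates 4 and 5 alone 7 were lower and 1 higher, where 14.3% and 16.8% of all genes were.

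**Figure D4:**
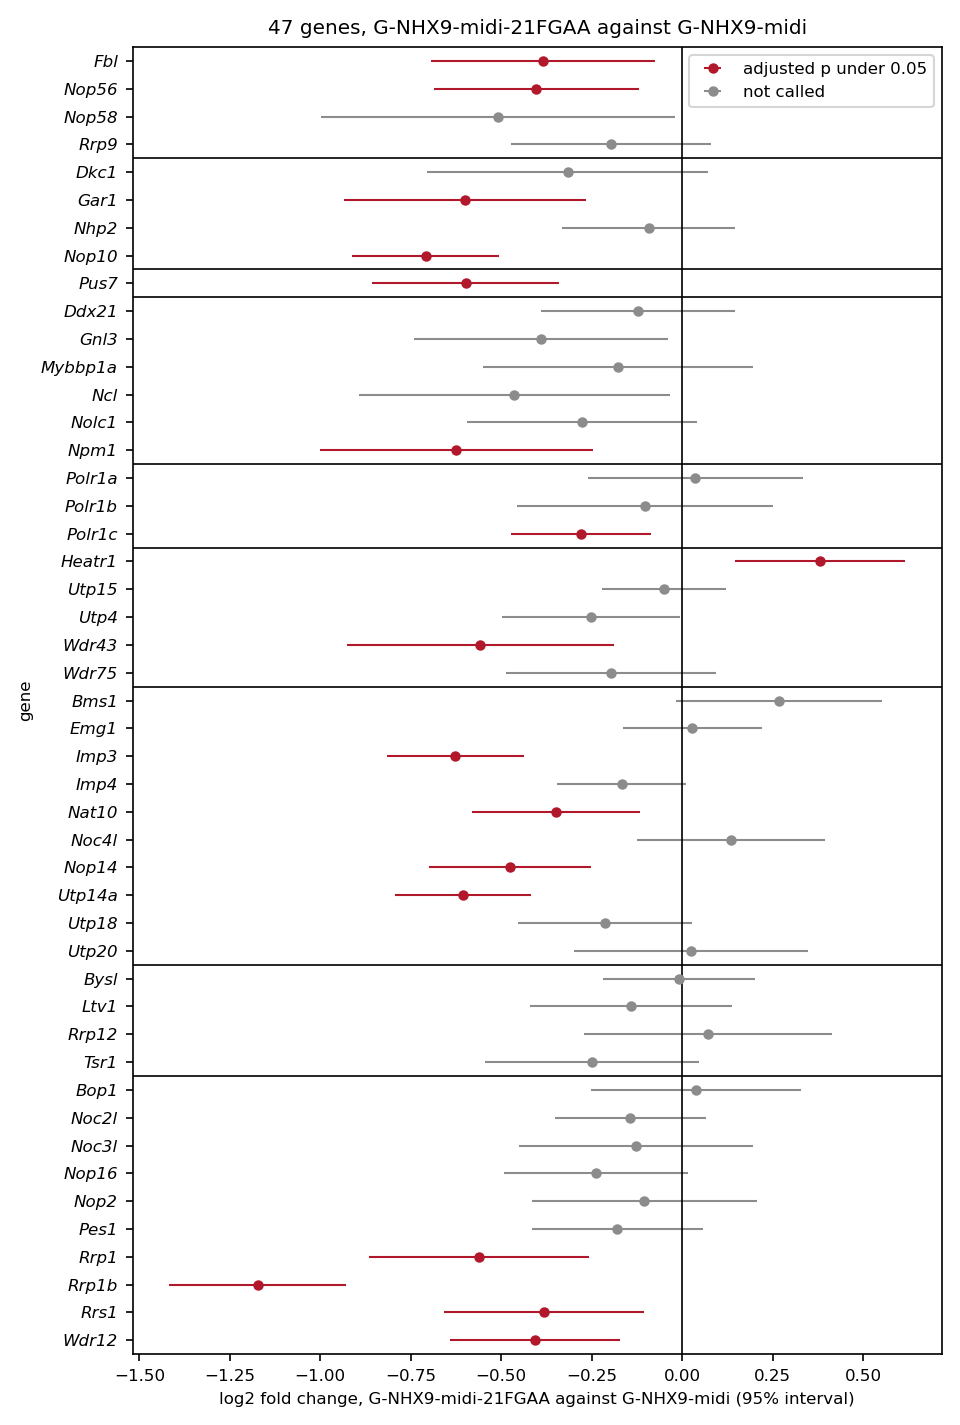
Log2 fold change of the 47 genes (rows) in G-NHX9-midi-21FGAA against G-NHX9-midi (horizontal axis), with points for the estimates of edgeR's fit and bars for 95% intervals, coloured by whether the gene passed the test. Most points lie left of 0, with *Rrp1b* farthest at -1.17, and *Heatr1* is the called gene on the right, at 0.38.

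G-NHX9-midi against G-NHX9-21FGAA, 2 constructs that change the NUP98 part in different ways, had 8 members higher and 1 lower, where 18.1% of all genes were higher and 18.0% lower. *Rrp1b* rose by 0.81 ± 0.12, *Utp14a* by 0.55 ± 0.09, *Rrp1* by 0.47 ± 0.15, *Nop10* by 0.47 ± 0.10, *Imp3* by 0.40 ± 0.09, *Nop14* by 0.38 ± 0.11, *Pus7* by 0.33 ± 0.13 and *Imp4* by 0.26 ± 0.09 on the log2 scale, and *Bms1* fell by 0.38 ± 0.14. All 5 libraries of G-NHX9-midi were above those of G-NHX9-21FGAA for 7 members (12.3% of all genes) and below for 1 (12.2%). This comparison depended on the set of libraries. In replicates 1 to 3 alone 35 members were higher and 0 lower in G-NHX9-midi, where 15.4% of all genes were higher and 17.0% lower. In replicates 4 and 5 alone 1 was higher, *Rrp1b*, and 9 were lower, where 12.8% and 15.1% of all genes were. *Dkc1* had a log2 difference of 0.49 in the first set (54.4, 49.5 and 50.2 CPM against 37.1, 32.5 and 39.9 CPM) and of -0.77 in the second (37.2 and 33.5 CPM against 58.1 and 59.3 CPM), with edgeR adjusted p of 0.013 and 0.0098. *Rrp1b* was higher in G-NHX9-midi in both sets, by 0.92 and 0.62 (edgeR adjusted p = 0.02 in the second). What distinguishes the sets of libraries is not given in the labels, and the difference between the sets was not tested.

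Part of the genes of the same pathway outside the 47 also rose over Empty. The shares of all genes that rose, for the counts in this and the next paragraph, were 16.9% in G-NHX9, 20.5% in G-NHX9-midi and 14.7% in G-NHX9-21FGAA. They were 13.4% in G-NHX9-8FA, 9.85% in G-NHX9-DDNA and 9.59% in G-NHX9-midi-21FGAA. Of 48 other large subunit assembly genes, 23 rose in G-NHX9, 37 in G-NHX9-midi, 22 in G-NHX9-21FGAA, 18 in G-NHX9-8FA, 13 in G-NHX9-DDNA and 11 in G-NHX9-midi-21FGAA. The largest rises were those of *Rrp15*, a large subunit factor (1.30 ± 0.17 in G-NHX9-midi), *Mdn1*, the giant ATPase that strips factors from the particle (1.06 ± 0.15), and *Nle1*, on which it acts (1.02 ± 0.19, with 0.90 ± 0.19 in G-NHX9). *Pwp1* had the largest rise in G-NHX9-8FA (0.72 ± 0.11), and *Ftsj3*, a methyltransferase, was among the largest in G-NHX9-midi-21FGAA (0.72 ± 0.18) and G-NHX9-DDNA (0.73 ± 0.18). *Nop53* was the exception, falling by 0.53 ± 0.14 in G-NHX9-midi-21FGAA and by 0.39 ± 0.14 in G-NHX9-DDNA.

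Of 43 other small subunit assembly genes, 17 rose in G-NHX9, 29 in G-NHX9-midi, 12 in G-NHX9-21FGAA, 11 in G-NHX9-8FA, 10 in G-NHX9-midi-21FGAA and 6 in G-NHX9-DDNA. *Rcl1*, which takes part in the early cuts of the precursor, was among the 3 largest in each, with log2 fold changes of 0.48 to 0.91. *Riok1*, a late kinase, rose by 0.92 ± 0.12 in G-NHX9-midi and 0.72 ± 0.12 in G-NHX9-8FA, and the processome proteins *Wdr36* and *Pdcd11* led in G-NHX9-21FGAA (0.72 ± 0.13 and 0.60 ± 0.12). Of 12 other RNA polymerase I genes 4 rose in G-NHX9, 8 in G-NHX9-midi, 3 in G-NHX9-8FA and 4 in each of the other 3. *Taf1d*, a subunit of the promoter factor SL1, rose in each construct, from 0.39 ± 0.13 in G-NHX9-midi-21FGAA to 1.30 ± 0.13 in G-NHX9-midi, with 1.06 ± 0.13 in G-NHX9-8FA. *Polr1e* rose by 0.53 ± 0.12 in G-NHX9, and *Ubtf*, the upstream binding factor that keeps ribosomal DNA open, by 0.31 ± 0.10 in G-NHX9-21FGAA. Between G-NHX9-midi-21FGAA and G-NHX9-midi, 15 of the 43 small subunit genes, 22 of the 48 large subunit genes and 4 of the 12 RNA polymerase I genes were lower, with 0, 2 and 0 higher. Of all genes tested, 22.2% were lower and 21.0% higher there.

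The network of MYC, the transcription factor most associated with ribosome production, was measured in 12 genes. *Myc* itself (ENSMUSG00000022346.15) was at 39.6, 28.9, 37.6, 55.7 and 46.3 CPM in Empty, at 71.8, 65.6, 67.2, 87.2 and 117 CPM in G-NHX9 and at 56.1, 78.8, 63.2, 66.0 and 79.6 CPM in G-NHX9-midi. Both constructs were above every Empty library. *Myc* rose by 0.98 ± 0.19 in G-NHX9 (edgeR adjusted p = 0.00019) and by 0.72 ± 0.19 in G-NHX9-midi on the log2 scale, while values in the others were 0.42 ± 0.19 in G-NHX9-21FGAA, 0.36 ± 0.19 in G-NHX9-8FA, 0.33 ± 0.19 in G-NHX9-DDNA and 0.07 ± 0.19 in G-NHX9-midi-21FGAA (edgeR adjusted p = 0.11, 0.17, 0.24 and 0.86). In the last group *Myc* was at 39.6, 38.5, 37.2, 54.8 and 47.7 CPM, inside the range of Empty. Against G-NHX9, *Myc* fell by 0.64 ± 0.19 in G-NHX9-DDNA, 0.61 ± 0.19 in G-NHX9-8FA and 0.56 ± 0.19 in G-NHX9-21FGAA, and against G-NHX9-midi it fell by 0.66 ± 0.19 in G-NHX9-midi-21FGAA. The part of *Myc* in the members' levels was not tested.

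Of the other network genes, *Mxd3*, which encodes a partner of MAX that competes with MYC and is found in dividing cells, rose in G-NHX9 (0.66 ± 0.22), G-NHX9-21FGAA (0.79 ± 0.22), G-NHX9-midi-21FGAA (0.96 ± 0.22) and G-NHX9-DDNA (0.90 ± 0.22). *Mxd1* (0.51) and *Mlx* (0.24) rose in G-NHX9-8FA, and *Mxi1* fell in G-NHX9 and in G-NHX9-midi. *Max*, the shared partner, had log2 fold changes over Empty between -0.02 and 0.21 that did not pass the test. *Mga*, *Mlxip*, *Mnt*, *Mxd4*, *Mycl* and *Mycn* were not called against Empty in any of the 6.

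Markers of dividing cells moved with some of these groups and not with others. Of 20 cell cycle genes, 19 rose in G-NHX9 and in G-NHX9-midi-21FGAA, 20 in G-NHX9-21FGAA and in G-NHX9-DDNA, 6 in G-NHX9-midi and 1 in G-NHX9-8FA, with median log2 fold changes of 0.73, 0.78, 0.85, 0.88, 0.23 and 0.16 in that order of groups. *Mki67*, the proliferation antigen, had log2 fold changes of 0.58 ± 0.22 in G-NHX9, 1.02 ± 0.22 in G-NHX9-21FGAA and -0.23 ± 0.22 in G-NHX9-midi (edgeR adjusted p = 0.44 in the last). Summed over the 20 genes the level was 1359 to 2550 CPM in Empty, 1545 to 3059 CPM in G-NHX9-midi, 1614 to 2698 CPM in G-NHX9-8FA, 2434 to 3459 CPM in G-NHX9, 2663 to 3772 CPM in G-NHX9-DDNA, 2983 to 3694 CPM in G-NHX9-21FGAA and 3066 to 3428 CPM in G-NHX9-midi-21FGAA. Against G-NHX9-midi, 11 of the 20 were higher in G-NHX9-midi-21FGAA and 0 lower, where 16 of the 47 members were lower and 1 higher. The part of cell division in the members' levels was not tested.

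**Figure D5:**
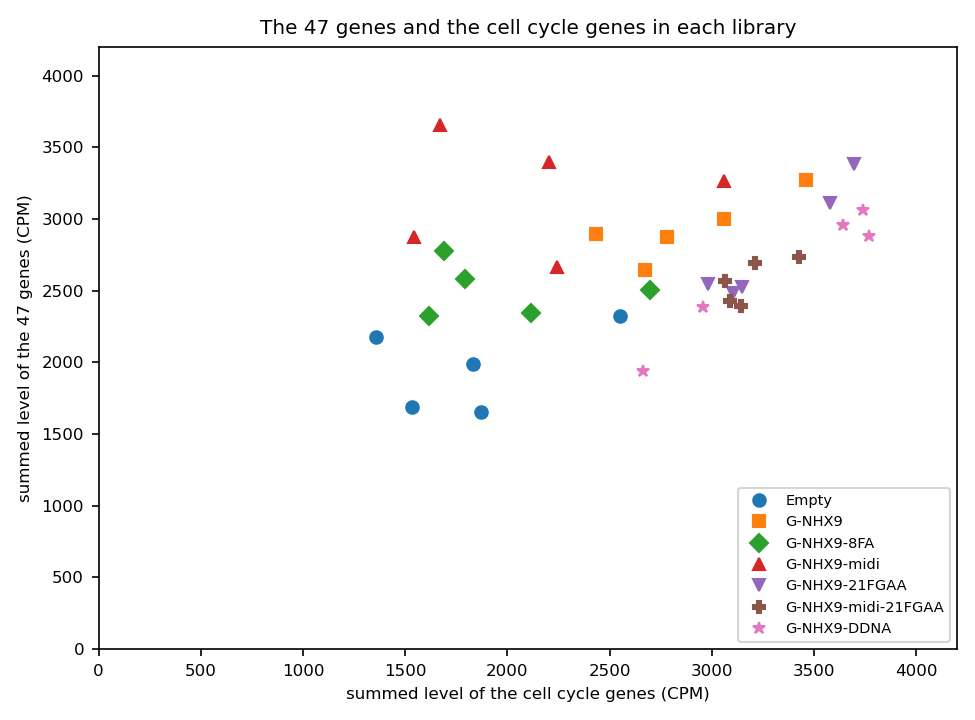
Summed level of the 47 nucleolar assembly genes (vertical axis, CPM) against the summed level of 20 cell cycle genes (horizontal axis, CPM) in each of the 35 libraries, coloured by group. Empty libraries lie at 1359 to 2550 CPM for the cell cycle genes and 1655 to 2322 CPM for the assembly genes, and G-NHX9-midi libraries at 1545 to 3059 CPM and 2666 to 3656 CPM.

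The cell makeup of the cultures also moved with the groups. All 12 erythroid markers fell in G-NHX9-8FA and 11 fell in G-NHX9-midi against Empty, while 7 rose in G-NHX9-21FGAA, 9 in G-NHX9-midi-21FGAA and 4 in G-NHX9-DDNA. None was called in G-NHX9. Their summed level was 231 to 719 CPM in Empty, 24 to 73.0 CPM in G-NHX9-8FA, 41.5 to 78.6 CPM in G-NHX9-midi, 185 to 510 CPM in G-NHX9, 363 to 1776 CPM in G-NHX9-21FGAA, 493 to 1555 CPM in G-NHX9-midi-21FGAA and 425 to 1657 CPM in G-NHX9-DDNA. Of 10 mast cell and basophil markers 7 fell in G-NHX9 and 8 in G-NHX9-midi and in G-NHX9-8FA, while 4 rose in G-NHX9-21FGAA and in G-NHX9-midi-21FGAA and none was called in G-NHX9-DDNA. Their summed level was 1327 to 3666 CPM in Empty, 743 to 1004 CPM in G-NHX9, 515 to 955 CPM in G-NHX9-midi, 630 to 973 CPM in G-NHX9-8FA, 3480 to 4789 CPM in G-NHX9-21FGAA, 2684 to 6478 CPM in G-NHX9-midi-21FGAA and 2671 to 3983 CPM in G-NHX9-DDNA.

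Eosinophil markers (8 genes) were at 1387 to 1926 CPM in Empty and 44.1 to 128 CPM in G-NHX9-midi, where 7 fell and 1 rose. In G-NHX9-8FA 7 of them fell (77.1 to 298 CPM), in G-NHX9 4 fell (285 to 1032 CPM), and in G-NHX9-DDNA 1 rose. All 8 megakaryocyte markers fell in G-NHX9-midi and in G-NHX9-8FA and 3 fell in G-NHX9, and 2 rose in G-NHX9-21FGAA. Of 13 neutrophil markers 9 rose in G-NHX9-8FA, with 15385 to 34585 CPM against 8777 to 13058 CPM in Empty. In G-NHX9-DDNA 7 of them rose and 1 fell, in G-NHX9-midi 6 rose and 3 fell, in G-NHX9-21FGAA 5 rose and 1 fell, in G-NHX9 4 rose, and in G-NHX9-midi-21FGAA 1 fell. Of 10 macrophage markers 3 rose and 2 fell in G-NHX9, with 1508 to 2552 CPM against 2794 to 3610 CPM in Empty, 2 rose and 5 fell in G-NHX9-midi, 2 rose and 1 fell in G-NHX9-8FA, 3 fell in G-NHX9-21FGAA and 2 fell in G-NHX9-DDNA. Stem and progenitor markers (8 genes) summed to 250 to 352 CPM in Empty and 677 to 826 CPM in G-NHX9, where 5 rose and 1 fell, and 3 to 5 of them rose and 0 to 2 fell in each of the other constructs. The part of the cell makeup in the members' rise was not tested.

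Per kilobase of exon, a scale that allows levels of different genes to be compared, *Npm1* stood highest of the 47 in Empty, at 112 ± 28.9 CPM per kilobase (SD, n = 5). *Nhp2* (38.1) and *Rrp1* (30.8) followed, both less than the level of *Npm1* by more than its spread. *Pus7* (1.66), *Wdr12*, a PeBoW partner (1.67), and *Gar1* (2.02) were the lowest, and the first 2 did not differ beyond their spread of 0.260 and 0.208. Exon lengths are unions over all annotated transcripts, so a gene with long rare exons is set too low.

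Promoter windows were examined because the members moved together. The RefSeq tables (GRCm38.p6) give a window from 250 bases before to 50 after the start for 42 of the 47 genes, and none for *Npm1*, *Rrp12*, *Rrs1*, *Bop1* and *Fbl*. The palindromic E-box, CACGTG, which MYC with MAX is known to bind, was present in 11 of the 42 (26.2%), where 8.09% of 27025 genes with a window and 11.4% of the tested genes with a window held it. The ETS motif CCGGAAG, searched on both strands, was in 14 (33.3%), against 9.93% and 18.9%. Neither motif contains the other. The 4 windows printed below hold an E-box, marked by capitals, for genes of 4 roles (those of *Nop2* and *Tsr1* also hold the ETS motif), and the last 2 are those of *Dkc1* and *Polr1b*, among the members with the largest rises, in which neither motif was found.
*Wdr43* (UTP-A, chr17:71615965-71616264, plus strand): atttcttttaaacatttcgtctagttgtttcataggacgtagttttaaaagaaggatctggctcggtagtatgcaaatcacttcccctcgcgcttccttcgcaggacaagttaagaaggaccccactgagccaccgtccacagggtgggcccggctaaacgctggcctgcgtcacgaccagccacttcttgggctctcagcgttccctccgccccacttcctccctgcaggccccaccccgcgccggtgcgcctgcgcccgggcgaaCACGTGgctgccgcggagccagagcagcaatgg
*Mybbp1a* (nucleolar MYB-binding protein, chr11:72441077-72441376, plus strand): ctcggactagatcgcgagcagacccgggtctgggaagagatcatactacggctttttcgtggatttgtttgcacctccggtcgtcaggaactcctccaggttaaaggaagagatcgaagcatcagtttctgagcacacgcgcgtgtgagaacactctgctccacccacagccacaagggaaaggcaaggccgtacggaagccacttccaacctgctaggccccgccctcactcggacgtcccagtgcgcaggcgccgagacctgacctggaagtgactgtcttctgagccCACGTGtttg
*Nop2* (large subunit methyltransferase, chr6:125131633-125131932, plus strand): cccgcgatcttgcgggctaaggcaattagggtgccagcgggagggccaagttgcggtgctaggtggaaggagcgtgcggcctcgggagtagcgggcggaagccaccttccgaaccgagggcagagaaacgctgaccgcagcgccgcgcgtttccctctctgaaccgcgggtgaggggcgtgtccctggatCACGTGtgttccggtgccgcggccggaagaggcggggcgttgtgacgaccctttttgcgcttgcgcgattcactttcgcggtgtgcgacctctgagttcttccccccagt
*Tsr1* (late small subunit factor, chr11:74897830-74898129, plus strand): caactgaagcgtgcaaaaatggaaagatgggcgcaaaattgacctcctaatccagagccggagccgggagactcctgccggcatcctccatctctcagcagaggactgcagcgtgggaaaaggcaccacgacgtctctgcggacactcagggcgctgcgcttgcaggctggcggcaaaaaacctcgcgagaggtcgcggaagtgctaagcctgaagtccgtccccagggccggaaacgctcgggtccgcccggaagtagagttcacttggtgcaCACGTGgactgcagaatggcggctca
*Dkc1* (chrX:75095604-75095903, plus strand): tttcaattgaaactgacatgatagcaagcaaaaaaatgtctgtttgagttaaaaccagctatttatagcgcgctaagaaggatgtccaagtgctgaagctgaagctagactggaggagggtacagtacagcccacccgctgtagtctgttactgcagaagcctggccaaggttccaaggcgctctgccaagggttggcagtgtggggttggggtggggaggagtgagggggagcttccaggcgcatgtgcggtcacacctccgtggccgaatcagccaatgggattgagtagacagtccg
*Polr1b* (chr2:129100746-129101045, plus strand): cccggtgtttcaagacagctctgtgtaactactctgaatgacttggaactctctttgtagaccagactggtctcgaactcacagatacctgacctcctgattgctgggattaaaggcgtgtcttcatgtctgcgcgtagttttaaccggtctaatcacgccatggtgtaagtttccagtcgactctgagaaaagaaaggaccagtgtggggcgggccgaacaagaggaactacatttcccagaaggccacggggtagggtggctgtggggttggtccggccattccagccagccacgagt

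The first base of the E-box lay 60 bases before the start in *Nop2* and 17, 24 and 40 bases after it in *Wdr43*, *Tsr1* and *Mybbp1a*. In G-NHX9-midi these 4 genes rose by 1.01 (*Wdr43*), 0.69 (*Mybbp1a*), 0.75 (*Nop2*) and 0.93 (*Tsr1*) on the log2 scale, and *Dkc1* and *Polr1b*, without the motif in this window, by 1.44 and 1.02. They are 4 of the 11 members with an E-box and do not stand for all of them. Of those not printed, *Imp4*, *Ltv1*, *Pes1* and *Utp18* each rose in 1 of the 6 comparisons with Empty. *Utp20* rose in 5, and *Pus7* and *Utp4* rose in 6. A match describes these letters and was not tested as a binding site. In the GENCODE M21 annotation 7 members (*Nop56*, *Nop58*, *Dkc1*, *Ncl*, *Gnl3*, *Wdr43* and *Tsr1*) contain 21 snoRNA genes, and reads from these and from the host transcript were not told apart. A gene on the opposite strand overlaps 20 members, *Dkc1*, *Nop56*, *Heatr1* and *Rrp1b* among them, and the strand setting of the counting is not given in the sources used here.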

How the data were processed

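Total RNA from 35 libraries (7 groups of 5) was sequenced, and the deposited values were raw counts of reads per gene, made by the authors with STAR 2.7.0d and HTSeq 0.11.2 per the labels; the submitters' notes and the table's name give the build as mm10, which is GRCm38, and identifiers were matched to GENCODE M21 on that build. The submitters also name DESeq2. Groups came from the sample titles. Members and gene lists were chosen with earlier results of these data known.

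Genes were filtered with edgeR's filterByExpr by group (17166 of 49671 genes, 99.96% of counts), scaled by TMM and fitted with edgeR 4.0.16 (R 4.3.3, limma 3.58.1) with 1 mean per group over all libraries (28 residual degrees of freedom). The quasi-likelihood test was used for 12 comparisons, with Benjamini-Hochberg adjustment over all genes tested in each and a threshold of 0.05. Values after ± are standard errors for fold changes and standard deviations for levels. Totals of 31559914 to 75810659 counts put 3 counts of a library at 0.0382 to 0.0995 CPM, well below every level of the members; this covers counting error only. The fit was tested on simulated data for G-NHX9 against Empty (17166 genes), recovering 66 of 100 genes changed by 2-fold and 96 of 100 by 4-fold.

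All 47 members may be named. Those given library by library were set by role (*Npm1*, *Ncl*, *Fbl*, *Nop56*, *Dkc1*, *Nop10*, *Gnl3*, *Ddx21*, *Polr1a*, *Polr1b*, *Heatr1*, *Nat10*, *Bop1*, *Pes1*, *Rrp1*, *Rrp1b*), and each comparison adds the 3 called members at each end of its log2 fold changes and any called against the main direction. Of the other assembly and RNA polymerase I lists, the 3 largest called changes in each direction were eligible. Other genes were chosen after their values were seen.

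The groups share replicate numbers. Deviations of same-numbered libraries from their group means correlated above 0.1 in all 5 pairs in G-NHX9, G-NHX9-midi-21FGAA and G-NHX9-DDNA against Empty and in G-NHX9-21FGAA and G-NHX9-DDNA against G-NHX9 (0.24 to 0.49 in the first), and the numbers were taken to pair the libraries there. The rule gave mixed results, since G-NHX9-21FGAA passed against G-NHX9 and not against Empty, while G-NHX9 passed against Empty. Correlations between libraries of different numbers were not computed. Alternatives were other scalings and filters, the replicate block, a fit of the 2 groups alone, DESeq2 1.42.0 and leaving out each library. Fits of the libraries labelled 8 weeks, of replicates 1 to 3 and of replicates 4 and 5 were chosen after seeing the data.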

Additional observations from a re-analysis of the deposited data

Results flagged for a closer look

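Levels of 16 members described library by library, and the summed level of the 47, were searched for single libraries far from the other 4 of their group by Dixon's test. Of 119 sets of 5 libraries tested, 6 held such a library, and chance alone gives about 1 in 20, or 5.95. In G-NHX9 replicate 5 was high for *Ddx21*, at 162 CPM against 120 to 127 CPM in the others, and for *Heatr1*, at 141 CPM against 105 to 107 CPM. In G-NHX9-DDNA replicate 5 was low for *Heatr1*, at 89.7 CPM against 122 to 127 CPM, and for *Polr1a*, at 31.3 CPM against 41.9 to 44.3 CPM. Empty replicate 1 was high for *Ncl*, at 153 CPM against 93.4 to 108 CPM, and G-NHX9-8FA replicate 1 was high for *Pes1*, at 78.0 CPM against 64.8 to 67.7 CPM.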

How the results depend on the processing

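Of the counts of members that rose over Empty, those of G-NHX9 and G-NHX9-midi stayed within 1.5 times under each alternative run, and the others moved further, single libraries aside, only in sets of libraries chosen after seeing the data: to 7 (G-NHX9-8FA), 11 (G-NHX9-midi-21FGAA) and 10 (G-NHX9-DDNA) in the libraries labelled 8 weeks, to 18 (G-NHX9-21FGAA) in replicates 1 to 3, and to 0 (G-NHX9-DDNA) in replicates 4 and 5. In G-NHX9-midi-21FGAA 1 member, *Imp3*, was lower with a mean of at least 1 CPM, with the replicate block and in DESeq2. Members lower in G-NHX9-8FA than in G-NHX9 numbered 17 without TMM, 8 with RLE size factors or at least 1 CPM, 3 without the filter, 11 with the replicate block, 9 in DESeq2, 10 in replicates 1 to 3 and 3 in replicates 4 and 5. Those higher in G-NHX9-midi than in G-NHX9 numbered 0 without TMM, 1 without the filter, 9 with the replicate block, 18 in replicates 1 to 3 and 1 in replicates 4 and 5. For G-NHX9-21FGAA against G-NHX9, 1 was higher with the replicate block, in the 2 groups alone and in replicates 4 and 5, and 1 was lower with RLE size factors, without the filter, in the 2 groups alone and at 8 weeks, 8 in replicates 1 to 3 and 0 in replicates 4 and 5. For G-NHX9-DDNA against G-NHX9, 2 were higher in replicates 1 to 3 and 11 lower in replicates 4 and 5. For G-NHX9-midi-21FGAA against G-NHX9-midi, 2 were higher with the replicate block and 0 in replicates 1 to 3, and 27 were lower in replicates 1 to 3 and 7 in replicates 4 and 5. For G-NHX9-midi against G-NHX9-21FGAA, 35 were higher in replicates 1 to 3 and 1 in replicates 4 and 5, with 0 and 9 lower. With the replicate block 11.4% of all genes were lower in G-NHX9-8FA than in G-NHX9, and 14.0% were higher in G-NHX9-midi than in G-NHX9. In G-NHX9-21FGAA against G-NHX9 11.6% were higher with the block, and in G-NHX9-midi-21FGAA against G-NHX9-midi 24.5% were. At 8 weeks 6.90% were lower in G-NHX9-21FGAA than in G-NHX9. Shares of all genes with RLE size factors, with other filters, in DESeq2 and without single libraries are not given. The cause of these changes was not tested.

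Leaving out single libraries gave 33 to 37 members higher than Empty in G-NHX9, 9 to 20 in G-NHX9-8FA (9 without Empty replicate 5), 41 to 44 in G-NHX9-midi, 27 to 38 in G-NHX9-21FGAA, 19 to 31 in G-NHX9-midi-21FGAA (with 0 to 1 lower) and 20 to 33 in G-NHX9-DDNA. It gave 1 to 5 lower in G-NHX9-8FA against G-NHX9, 1 to 6 higher in G-NHX9-midi, 1 to 3 lower in G-NHX9-21FGAA and 4 to 6 lower in G-NHX9-DDNA, then 13 to 20 lower and 1 to 2 higher in G-NHX9-midi-21FGAA against G-NHX9-midi, and 6 to 10 higher and 0 to 1 lower in G-NHX9-midi against G-NHX9-21FGAA.

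Without TMM the median log2 fold change of the members was 0.74 in G-NHX9 against Empty and -0.33 in G-NHX9-8FA against G-NHX9, where the medians of all genes moved to 0.19 and -0.12. Of all genes tested in G-NHX9 against Empty, 5007 were then higher and 1636 lower, where TMM gave 2894 and 2617. The replicate block lost no call, and where the numbers were taken to pair the libraries it took the calls to 37 in G-NHX9, 35 in G-NHX9-midi-21FGAA and 31 in G-NHX9-DDNA. Where they were not, the block gave 26 calls in G-NHX9-8FA (17.6% of all genes higher), 44 in G-NHX9-midi (24.9%) and 39 in G-NHX9-21FGAA (18.1%), all higher than Empty. Of the values of single members, 10454 kept their side of the threshold, 467 lost the call and 352 gained it. A change of direction where neither the main nor the alternative fit called the gene was counted among the 10454. Direction changed with a call in at least 1 of the fits in 7 values. All 7 were in G-NHX9-midi against G-NHX9-21FGAA: in replicates 1 to 3 *Dkc1* was at 0.49, *Polr1a* at 0.28 and *Polr1b* at 0.38, and in replicates 4 and 5 *Ddx21* was at -0.52, *Utp20* at -0.60, *Imp4* at -0.0017 and *Pus7* at -0.13.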
